A study of Mus musculus with 18 samples.

Results

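This account follows 7 genes of oocyte growth factor signalling in the mouse ovary, out of 55416 genes measured. They are the ligand genes Gdf9 and Bmp15, the type I receptor genes Bmpr1a, Bmpr1b and Tgfbr1, and the type II receptor genes Bmpr2 and Acvr2a. The genes were chosen by name, for their place in the pathway, with earlier results of these data known. All 7 were found in the deposited tables and passed the filter on low counts. RNA came from ovaries of 18 wildtype female Balb/c mice in 3 groups of 6, with 1 library per mouse. Young control mice were 8 weeks old and aged control mice 40 weeks old, and both received distilled water. Aged Samul-tang mice were 40 weeks old and received Samul-tang, a herbal decoction, at 2.5 g/kg. Aged mice were dosed by mouth 5 times a week for 4 weeks, and treated and untreated aged mice shared cages. The same schedule is listed for young controls. Every mouse, controls included, was then given 5 IU of pregnant mare serum gonadotropin to grow follicles and 5 IU of hCG, an ovulation trigger, after a gap of 48 hours. Ovaries were collected 16 hours after hCG. The values therefore describe a whole, hormonally stimulated ovary after ovulation, in which oocytes are a small part of the tissue.

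GDF9 and BMP15 are closely related members of the TGF-beta superfamily that the oocyte secretes, alone or as pairs, to act on the granulosa and cumulus cells around it. Such ligands bring together type II and type I receptor kinases, and the type I receptor then phosphorylates SMAD proteins that enter the nucleus. GDF9 acts through BMPR2 with TGFBR1 and the SMADs of the TGF-beta branch, and BMP15 through BMPR2 with BMPR1B and the SMADs of the BMP branch. BMPR1A is the other widely used BMP type I receptor, and ACVR2A is a type II receptor for activins and several BMPs. In mice, loss of Gdf9 stops follicles at an early stage, while loss of Bmp15 or Bmpr1b mainly lowers ovulation, fertilization or cumulus function.

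Levels are given as CPM, the counts of a gene in each 1000000 counts of its library after TMM scaling, and as fold changes on the log2 scale from edgeR. Libraries held 9049194 to 20354251 counts, and the 6 aged Samul-tang libraries (at least 14200718) were all deeper than the 6 aged control libraries (at most 13428424). Markers of oocytes, granulosa, theca and luteal cells were all detected, with no gene of these 4 lists at 0 throughout a group. Oviduct markers summed to 0.62 to 2.61 CPM over all libraries. Adipocyte markers summed to 14.0 to 48.9 CPM in young controls, 42.5 to 89.2 in aged controls and 33.4 to 105 in treated ovaries, with the adipokine gene Lep at 0 in every library of each group. In bulk tissue, fewer cells of a type and less RNA per cell cannot be told apart.

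The 250 bases before the annotated gene start are shown for Bmp15 and Bmpr1b (the first of its 3 annotated starts), both of which fell in aged ovaries, and for Bmpr1a, a receptor gene that was not called. They were picked after their values had been seen and are a description of 3 sequences. They come from RefSeq on build GRCm38.p6, which is not the build of the deposited tables; 6 of the 7 genes matched, all but Gdf9. Capitals mark CANNTG (the E-box, a core read by helix-loop-helix factors such as FIGLA) and TAATTG or TAATTA (homeobox cores of the kind NOBOX reads), on either strand.
Bmp15, chrX:6320725-6320974 (GRCm38.p6, minus strand): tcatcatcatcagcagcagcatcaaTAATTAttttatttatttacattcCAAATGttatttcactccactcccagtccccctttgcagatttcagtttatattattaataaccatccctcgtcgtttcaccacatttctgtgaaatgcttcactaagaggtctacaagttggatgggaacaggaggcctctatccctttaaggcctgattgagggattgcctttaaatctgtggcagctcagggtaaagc
Bmpr1b, chr3:141982265-141982514 (GRCm38.p6, minus strand): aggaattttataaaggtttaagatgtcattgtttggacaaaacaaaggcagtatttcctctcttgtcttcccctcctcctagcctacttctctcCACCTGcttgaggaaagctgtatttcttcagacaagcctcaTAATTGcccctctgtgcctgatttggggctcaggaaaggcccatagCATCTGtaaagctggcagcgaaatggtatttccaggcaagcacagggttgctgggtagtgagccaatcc
Bmpr1a, chr14:34502547-34502796 (GRCm38.p6, minus strand): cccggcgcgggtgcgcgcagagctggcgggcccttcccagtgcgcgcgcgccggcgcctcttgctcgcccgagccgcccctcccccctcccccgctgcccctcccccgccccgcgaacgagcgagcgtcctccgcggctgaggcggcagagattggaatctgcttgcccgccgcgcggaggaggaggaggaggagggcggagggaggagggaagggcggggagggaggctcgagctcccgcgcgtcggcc
The Bmp15 sequence had 40.4% G and C and 2 CG dinucleotides, the Bmpr1b sequence 46.8% and 1, and the Bmpr1a sequence 78.8% and 36. The median over 32851 promoters of this length was 52.4% and 6. Of all promoters, 66.2% held CANNTG and 11.3% held TAATTG or TAATTA. Bmp15 had 1 match to CANNTG and 1 to the homeobox cores, Bmpr1b had 2 and 1, and Bmpr1a had none of either. The other two Bmpr1b starts had 52.8% and 56.4% G and C, no homeobox core, and 0 and 1 match to CANNTG. The first annotated promoters of Bmpr2, Tgfbr1 and Acvr2a, with 64.0%, 74.8% and 82.0% G and C, had none of either as well. A second start of Tgfbr1 had 52.8% G and C, 3 CG dinucleotides, 1 match to CANNTG and no homeobox core. A match is a run of letters, not a bound site, and no match says nothing about the factor.

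Between aged and young control ovaries, the ligand genes and Bmpr1b were about 3-fold to 4-fold lower, Bmpr2 was slightly lower, and the other 3 receptor genes did not pass the test. In all, 4 of the 7 genes were called lower and none higher at an edgeR adjusted p under 0.05, against 11.3% of all 16959 genes tested called in either direction, 5.25% higher and 6.03% lower. The median log2 fold change of the 7 genes was -0.33, beside 0.01 for all genes tested. In 3 of the 7 (Gdf9, Bmp15 and Bmpr1b) every aged control library lay below every young library, as it did for 4.17% of genes tested (7.38% without overlap in either direction).

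**Figure D1:**
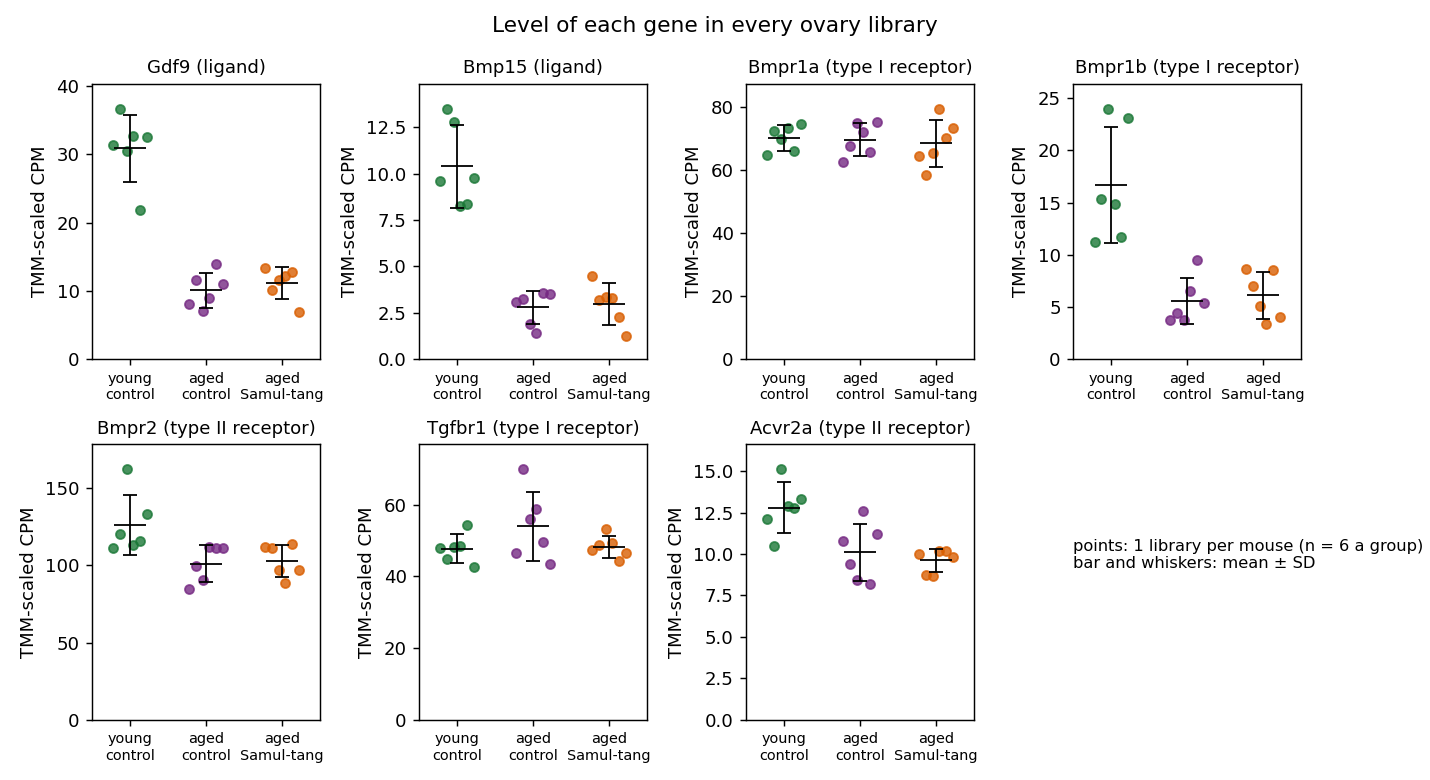
Level of each of the 7 genes in every library (vertical axis, TMM-scaled CPM from 0; horizontal axis, group), with points for single mice and the mean ± SD of 6. Gdf9, Bmp15 and Bmpr1b separate young from aged libraries without overlap, while Bmpr1a lies between 58.4 and 79.4 CPM in all 3 groups.

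Gdf9 ranged from 21.9 to 36.7 CPM in young control ovaries, with a median of 32.0. In aged controls it ranged from 6.97 to 14.0 CPM, with a median of 9.99. The highest aged library thus stayed below the lowest young library. The mean went from 30.9 ± 4.92 to 10.1 ± 2.58 CPM (SD, n = 6), a 3.06-fold fall (-1.61 ± 0.17 SE in log2, adjusted p = 1.44e-06 by edgeR). Its counts were 81 to 496 per library.

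Bmp15, the X-linked relative of Gdf9, was the rarer ligand transcript. It ranged from 8.26 to 13.5 CPM in young controls (median 9.68) and from 1.42 to 3.54 CPM in aged controls (median 3.16). The groups again did not overlap, and the mean of 10.4 ± 2.23 CPM in young mice compared with 2.78 ± 0.899 CPM in aged mice (SD, n = 6), a 3.71-fold fall (-1.89 ± 0.25 SE in log2, adjusted p = 1.54e-05 by edgeR). Behind these values stood 18 to 182 counts per library, and the lowest Bmp15 values rest on few reads. The ratio of Gdf9 to Bmp15 CPM was 3.05 ± 0.581 in young controls, 3.88 ± 1.29 in aged controls and 4.08 ± 1.22 in treated ovaries (SD, n = 6). Single libraries ran from 2.38 to 3.96, from 2.63 to 6.33 and from 2.98 to 5.66, so the ratios of the 3 groups overlapped.

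In aged controls the falls of the ligand genes lay within the range of the other oocyte genes. All 17 tested oocyte markers, such as the zona pellucida genes Zp2 and Zp3 (-1.94 ± 0.20 and -1.89 ± 0.23), were called lower in aged controls, with log2 fold changes from -2.30 to -1.46 and a median of -1.83. Of these 17, 11 fell more than Gdf9 and 5 fell more than Bmp15. In treated against young ovaries, with markers from -1.78 to -1.09, 12 fell more than Gdf9 and 0 fell more than Bmp15 (-1.79). Their summed level was 154 to 230 CPM in young and 46.5 to 82.0 CPM in aged control libraries. Markers of luteal cells summed to 10000 to 13400 CPM in young and 14900 to 17000 CPM in aged controls, with 2 of 8 called higher. Endothelial markers had 3 of 6 called higher (median 0.31). Smooth muscle markers had 5 of 6 called lower (median -0.87), and theca and interstitial markers 3 of 8 lower and 1 higher (median -0.58). The part of these shifts in the values of the 7 genes was not tested.

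Set against the mean of the oocyte markers within each library, neither ligand gene passed the test. On the scale log2(CPM + 1), Gdf9 stood 1.71 ± 0.11 above the oocyte markers in young and 1.56 ± 0.13 above them in aged controls (SD, n = 6; difference -0.15, exact permutation p = 0.0671, adjusted p = 0.157 over 21 tests). The direction of this small difference turned with a pseudocount of 0.1 (0.17, exact permutation adjusted p = 0.096). Bmp15 stood at 0.21 ± 0.23 in young and 0.00 ± 0.26 in aged controls (SD, n = 6; difference -0.21, exact permutation p = 0.173, adjusted p = 0.299), and on the log2(TPM + 1) scale this difference turned too (0.15, exact permutation adjusted p = 0.283). A p that misses the threshold does not show that the ligand genes kept step with the other oocyte genes.

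**Figure D2:**
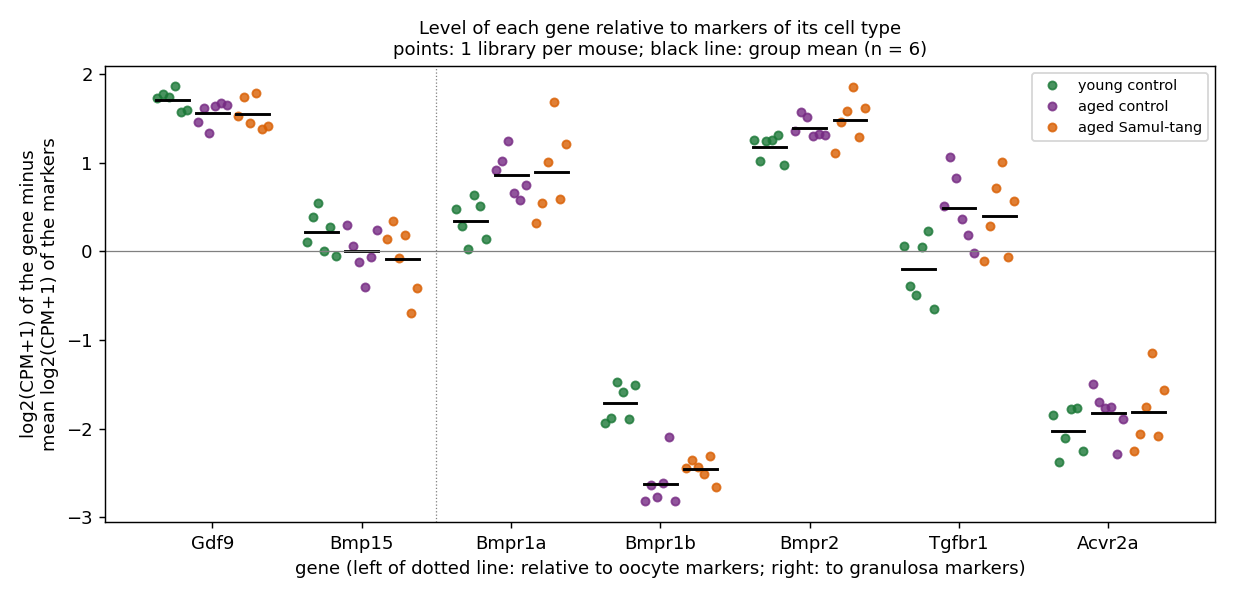
Each gene's log2(CPM + 1) minus the mean of its marker list in the same library (vertical axis, log2 units), by gene (horizontal axis) and group (colour), with points for single mice and a line for the mean of 6. Young and aged control libraries overlap for Gdf9 and Bmp15 and separate for Bmpr1b, where young libraries lie between -1.94 and -1.47 and aged controls between -2.82 and -2.09.

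Among the type I receptor genes, Bmpr1b fell almost as much as the ligands. Bmpr1b, whose product pairs with BMPR2 to receive BMP15, ranged from 11.2 to 24.0 CPM in young controls (median 15.1) and from 3.70 to 9.49 CPM in aged controls (median 4.93). Young replicates 3 and 6 were the highest at 24.0 and 23.1 CPM, and no aged library reached the lowest young value. The mean went from 16.7 ± 5.55 to 5.57 ± 2.21 CPM (SD, n = 6), a 2.98-fold fall (-1.57 ± 0.28 SE in log2, adjusted p = 0.00101 by edgeR). Counts were 43 to 298 per library.

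Granulosa cells carry these receptors, and the part of each receptor gene's RNA that came from them was not tested. Granulosa markers were lower too, with 8 of 16 tested called lower and 1 higher in aged controls (median -0.53). Their summed level was 1500 to 2070 CPM in young and 988 to 1500 CPM in aged controls. Bmpr1b fell further than 14 of the 16, the exceptions being the estrogen receptor gene Esr2 (-1.84 ± 0.18) and the monoamine transporter gene Slc18a2 (-1.86 ± 0.19). Relative to the mean of the granulosa markers, Bmpr1b was -1.71 ± 0.21 in young and -2.62 ± 0.28 in aged controls (SD, n = 6; difference -0.91, exact permutation p = 0.00216, the smallest this design can give; adjusted p = 0.0227). Without young replicate 3 and treated replicate 6, a pair with low correlation to their groups, the difference was -0.86 (exact permutation adjusted p = 0.0606, in a smaller design). Bmpr1b is also transcribed in oocytes, and bulk RNA does not separate that part.

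Bmpr1a, the broadly expressed BMP type I receptor gene, was level across groups. It ranged from 64.7 to 74.4 CPM in young controls (median 71.0) and from 62.4 to 75.1 CPM in aged controls (median 69.7). The groups overlapped almost completely, and the log2 fold change was -0.01 ± 0.07 SE (edgeR adjusted p = 0.952), with an approximate 95% interval from -0.15 to 0.13. Its level relative to the granulosa markers was 0.51 higher in aged controls (0.86 ± 0.25 against 0.35 ± 0.24, SD, n = 6; exact permutation p = 0.00433, adjusted p = 0.0303). That call was lost when any 1 of young controls 1, 2, 3 and 6 or aged controls 1, 2 and 3 was left out, and without young replicate 3 and treated replicate 6 together (exact permutation adjusted p = 0.0606 each, in smaller designs). The difference in these cases was 0.44 to 0.54. Bmpr1a itself was level in CPM, so its higher relative value comes by arithmetic from lower granulosa markers (median log2 fold change -0.53). Which cells held the Bmpr1a RNA, and how much each held, was not tested.

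Tgfbr1, the type I receptor gene used by GDF9, was 42.6 to 54.4 CPM in young controls (median 48.0) and 43.5 to 69.8 CPM in aged controls (median 52.7). Aged control 2 held the highest value, and the groups overlapped. The log2 fold change of 0.18 ± 0.09 SE did not pass (edgeR adjusted p = 0.231). Relative to the granulosa markers Tgfbr1 was 0.69 higher in aged controls, which did not pass either (exact permutation p = 0.0152, adjusted p = 0.0636, n = 6). Without aged control 6 that difference was 0.79 and passed (exact permutation adjusted p = 0.0364). Both differences include the fall of the granulosa markers.

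Of the type II receptor genes, Bmpr2 was slightly lower in aged controls. Bmpr2, which serves GDF9 and BMP15 alike, was 111 to 162 CPM in young controls (median 118) and 84.6 to 112 CPM in aged controls (median 105). The ranges met at 111 to 112 CPM, and young control 3 stood highest. The means were 126 ± 19.3 and 101 ± 11.9 CPM (SD, n = 6), a 1.24-fold fall (-0.31 ± 0.09 SE in log2, adjusted p = 0.0288 by edgeR). This call was lost in 10 of 28 alternatives (adjusted p up to 0.15), among them those without any 1 of young controls 3 and 6 or aged controls 1, 2 and 3. Without young control 3 it was -0.23 (edgeR adjusted p = 0.0706). Bmpr2 was the longest of the 7 genes in the deposited tables (8726 bases), and with a gene length trend removed the value was -0.26 (edgeR adjusted p = 0.0508). Bmpr2 fell less than the mean of the granulosa markers. Relative to them it was therefore 0.22 higher in aged controls (1.39 ± 0.12 against 1.18 ± 0.15, SD, n = 6; exact permutation p = 0.00649, adjusted p = 0.0341), a call that 12 of 16 alternatives lost. Those were the fits without any 1 of young controls 1, 2, 3, 4 and 6 or aged controls 1, 2, 3 and 5, the one without young replicate 3 and treated replicate 6, and those on log2(CPM + 0.1) and log2(TPM + 1). The difference in these 12 was 0.18 to 0.23, with exact permutation adjusted p from 0.0545 to 0.114, and leaving out libraries makes the permutation design smaller.

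Acvr2a, a type II receptor gene for activins and BMPs, was 10.5 to 15.1 CPM in young controls (median 12.8) and 8.21 to 12.6 CPM in aged controls (median 10.1). The groups overlapped and the fall did not pass (log2 fold change -0.33 ± 0.12 SE, edgeR adjusted p = 0.0689). It passed without aged control 4 (-0.41, edgeR adjusted p = 0.0289) or without young control 2 (-0.38, edgeR adjusted p = 0.0446). The expected count of Acvr2a was whole, to within 0.005, in 1 of 18 libraries, against 17 for Gdf9 and 18 for Bmp15 and Bmpr1b, so part of its reads was divided among features and its level is less certain. Bmpr2 had a whole count in 9 libraries and Bmpr1a in 13.

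**Figure D3:**
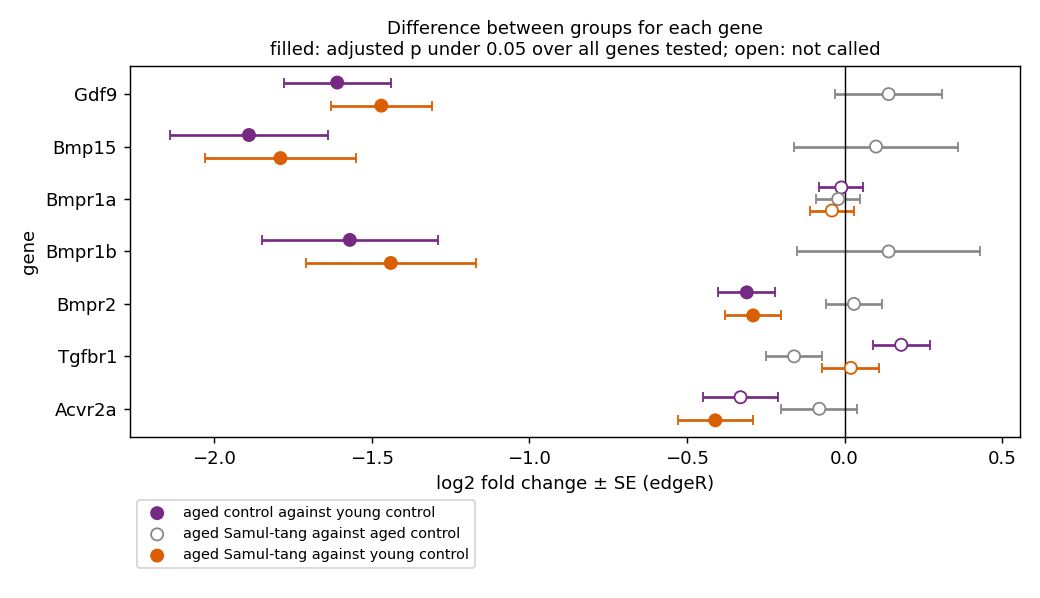
Log2 fold change ± SE (horizontal axis) of each gene (vertical axis) in the 3 comparisons, filled where the edgeR adjusted p was under 0.05. Gdf9, Bmp15 and Bmpr1b lie between -1.89 and -1.44 in both aged groups against young controls, and all 7 genes lie between -0.16 and 0.14 in treated against untreated aged ovaries.

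Samul-tang was given to aged mice, and none of the 7 genes was called between treated and untreated aged ovaries by edgeR. At an unadjusted edgeR p under 0.05 the number was 0 as well (smallest unadjusted p = 0.0843 from edgeR), and DESeq2 and every other alternative also called 0 of 7. In this comparison 1.04% of all genes tested were called, 0.548% higher and 0.489% lower. Log2 fold changes were 0.14 ± 0.17 for Gdf9, 0.10 ± 0.26 for Bmp15 and 0.14 ± 0.29 for Bmpr1b (SE), with approximate 95% intervals from -0.19 to 0.47, from -0.40 to 0.60 and from -0.42 to 0.70. None of these intervals reached the difference between young and aged controls, although the data leave room for moderate changes. The remaining receptor genes had narrower intervals, from -0.16 to 0.11 for Bmpr1a, from -0.15 to 0.21 for Bmpr2, from -0.34 to 0.01 for Tgfbr1 and from -0.31 to 0.15 for Acvr2a.

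In treated ovaries Gdf9 ranged from 6.89 to 13.4 CPM (median 11.8) and Bmp15 from 1.23 to 4.49 CPM (median 3.26), within or close to the range of aged controls. Treated replicate 6 was lowest for both ligands. Bmpr1b was 3.38 to 8.65 CPM (median 6.04) and Bmpr2 was 88.6 to 114 CPM (median 104). Tgfbr1 was 44.4 to 53.2 CPM (median 48.1), with an SD of 2.99 beside 9.60 in aged controls, and Acvr2a was 8.70 to 10.2 CPM (median 9.92). All 7 genes overlapped between the aged groups, while 1.53% of genes tested did not (0.678% with treated lower).

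Treated aged ovaries against young controls gave values close to those of the untreated aged ovaries, with the same young libraries serving as reference in both. Here 5 of the 7 genes were called lower and none higher, where 22.4% of all genes tested were called, 11.5% higher and 10.9% lower. Log2 fold changes were -1.47 ± 0.16 for Gdf9, -1.79 ± 0.24 for Bmp15, -1.44 ± 0.27 for Bmpr1b, -0.29 ± 0.09 for Bmpr2 and -0.41 ± 0.12 for Acvr2a (SE; edgeR adjusted p = 2.22e-06, 1.56e-05, 0.00107, 0.0279 and 0.0127). Bmpr1a (-0.04 ± 0.07) and Tgfbr1 (0.02 ± 0.09) did not pass. For Acvr2a the treated and young libraries did not overlap, as for Gdf9, Bmp15 and Bmpr1b. That was so for 9.5% of genes tested, and for 4.65% with treated lower. The Bmpr2 call was lost in 9 of 28 alternatives, among them those without any 1 of young controls 3 and 6 and treated replicates 3 and 4, and without young control 3 the value was -0.20 (edgeR adjusted p = 0.079). With a gene length trend removed the Bmpr2 value was -0.14 (edgeR adjusted p = 0.249), and without young replicate 3 and treated replicate 6 it was -0.18 (edgeR adjusted p = 0.115). Relative to granulosa markers, Bmpr1b was lower than in young controls (-2.45 ± 0.13 against -1.71 ± 0.21, SD, n = 6; exact permutation p = 0.00216, adjusted p = 0.0227). Without young replicate 3 and treated replicate 6 this difference was -0.65 and the call was lost (exact permutation adjusted p = 0.0606, in a smaller design).

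The order of the genes by level depended on the scale. The deposited TPM values divide by gene length, which does not suit reads from the 3' end, while CPM does not divide by length. On the CPM scale Bmpr2, Bmpr1a and Tgfbr1 came first in all 3 groups, and Gdf9 came next in young controls (30.9 ± 4.92 CPM, SD, n = 6), below Tgfbr1 (47.7 ± 4.01 CPM) in all 6 libraries. The TPM order follows. By TPM, Gdf9 came first in young controls at 17.2 ± 2.72 TPM, followed by Bmpr2 (14.5 ± 3.42), Bmpr1a (11.5 ± 0.690), Tgfbr1 (8.83 ± 0.921), Bmpr1b (3.45 ± 1.3), Bmp15 (3.32 ± 0.754) and Acvr2a (2.18 ± 0.289; SD, n = 6). Gdf9 exceeded Bmpr2 in 4 of 6 young libraries and Bmpr1b exceeded Bmp15 in 3 of 6, so neither of these neighbours stood apart. In aged controls the TPM order was Bmpr2 (11.2 ± 2.02), Bmpr1a (11.1 ± 0.809), Tgfbr1 (9.59 ± 1.95), Gdf9 (5.44 ± 1.38), Acvr2a (1.67 ± 0.278), Bmpr1b (1.04 ± 0.415) and Bmp15 (0.862 ± 0.274 TPM; SD, n = 6). There Gdf9 lay below Tgfbr1 in all 6 libraries, as it did by CPM in young controls too, so the place of Gdf9 relative to Tgfbr1 differed with age by TPM but not by CPM. Neighbours among the first 3 receptor genes overlapped. The treated ovaries had the TPM order of the aged controls except that Bmpr1a and Bmpr2 were level, at 10.9 ± 1.15 and 10.9 ± 1.95 TPM. As a share of the summed TPM of the 5 receptor genes, Bmpr1b was 8.34 ± 2.20% in young controls, 3.02 ± 1.24% in aged controls and 3.36 ± 1.08% in treated ovaries (SD, n = 6). As a share of their summed CPM it was 6.02 ± 1.49%, 2.30 ± 0.851% and 2.57 ± 0.888%.

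Within groups, Pearson's r among the ligand genes and Bmpr1b ran from 0.14 to 0.81, and none passed after adjustment. With 6 libraries a group, a missed threshold does not show that a relation is weak. For Gdf9 and Bmp15, Pearson's r was 0.54 in young controls, 0.65 in aged controls and 0.81 in treated ovaries (n = 6 each, exact permutation p = 0.222, 0.189 and 0.136), and Spearman's rho was 0.26, 0.77 and 0.60 (exact permutation p = 0.658, 0.103 and 0.242). Without the 2 libraries farthest from the median of Gdf9, r was -0.87, 0.44 and 0.24 over 4 libraries each, a narrower range of Gdf9. The same step raised r in other relations, such as Bmp15 with Bmpr1b in aged controls (0.14 to 0.84). Over the 9 relations among Gdf9, Bmp15 and Bmpr1b, no exact permutation p passed after adjustment (lowest adjusted p = 0.499 for r and 0.436 for rho).

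Bmpr1b and Bmpr2, the receptor pair for BMP15, had positive correlations within each group, none of which passed after adjustment. This pair was added after the values had been seen. Pearson's r was 0.86 in young controls, 0.81 in aged controls and 0.97 in treated ovaries (n = 6 each, exact permutation p = 0.0139, 0.0278 and 0.0111, adjusted p = 0.0834, 0.111 and 0.0834 over 12 relations). Spearman's rho was 0.94, 0.77 and 0.89 (exact permutation p = 0.0167, 0.103 and 0.0333, adjusted p = 0.20, 0.247 and 0.20). Without the 2 libraries farthest from the median of Bmpr1b, r was 0.57, 0.96 and 0.95. The relation was positive in all 3 groups and did not pass after adjustment. Young controls 3 and 6 had the highest Bmpr1b and the highest Bmpr2 (162 and 133 CPM).

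**Figure D4:**
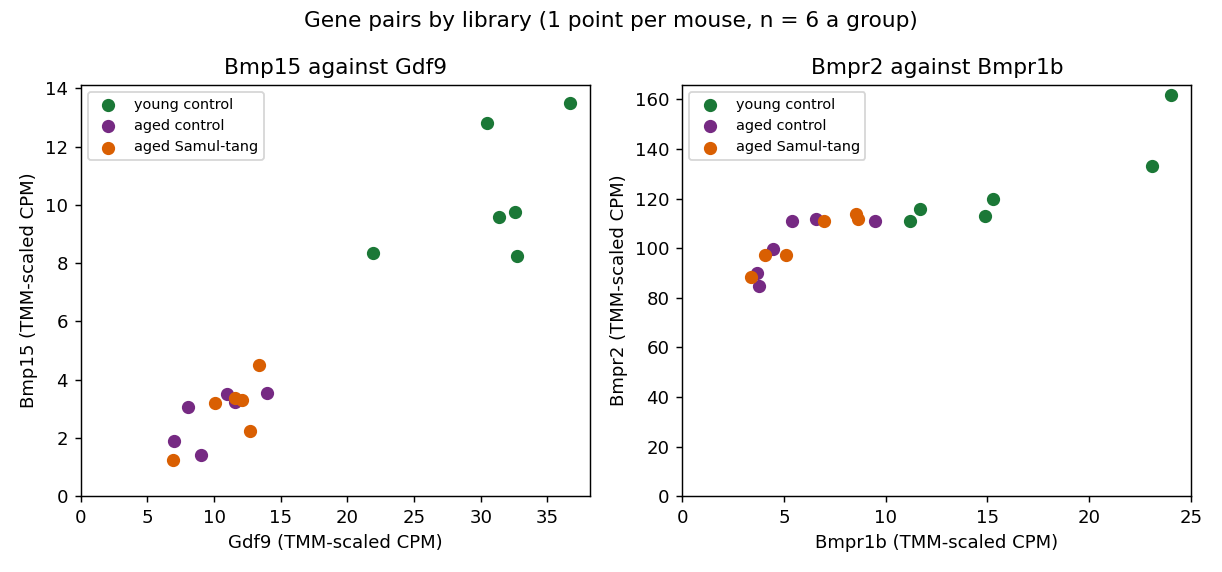
Bmp15 against Gdf9 (left) and Bmpr2 against Bmpr1b (right) in TMM-scaled CPM, with 1 point per mouse coloured by group (n = 6 each). On the left young and aged libraries form separate clouds. The pair on the right was added after the values had been seen. Its r was positive within each group and did not pass after adjustment, and Bmpr2 ran from 84.6 to 162 CPM over all libraries.

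The genes whose pattern over the 18 libraries was most like that of each member were ranked by Pearson's r of log2(CPM + 1) among 12878 genes, a description with no test, over libraries that share depth and group. For Gdf9 they were the oocyte linker histone gene H1f8 (r = 0.98), Zp3 (0.98), the oocyte cap-binding protein gene Eif4e1b (0.97), Khdc3 (0.97) and Uchl1 (0.97). After the group means were removed their r with Gdf9 was 0.85, 0.86, 0.82, 0.89 and 0.78. For Bmp15 they were Uchl1 (0.96), C86187 (0.95), Gdf9 (0.95), Eif4e1b (0.95) and Zp3 (0.94), with 0.67 to 0.75 after removal of the group means.

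For Bmpr1b the nearest genes were Cnmd, which encodes the anti-angiogenic protein chondromodulin (0.97), Tex15 (0.97), the kinase genes Prkcd (0.97) and Map3k5 (0.96), and the transcription factor gene Foxo1 (0.96). Their r was 0.93, 0.90, 0.89, 0.91 and 0.85 after the group means were removed. Cnmd went from 49.2 CPM in young to 10.7 CPM in aged controls and Foxo1 from 129 to 73.9 CPM. For Bmpr2 the list was Greb1l (0.95), Zfp277 (0.93), Sema5a (0.92), Gab2 (0.91) and Bmpr1b itself (0.90). Bmpr1a was closest to Pja2 (0.85), Nat14 (0.84), Hoxd9 (0.84), Hook3 (0.82) and Las1l (0.81). Acvr2a was closest to Gatad2b (0.87), Chd6 (0.87), Nav2 (0.86), Pnisr (0.85) and Tram2 (0.85). Tgfbr1 was closest to Rasl11a (0.82), Rtn4ip1 (0.78), Frmd6 (0.73), Lrrc3 (0.73) and Maged1 (0.73), the lowest likeness of the 7.

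The rest of the pathway was called about as often as genes at large between aged and young controls. Of 71 further genes in 8 lists of ligands, receptors, SMADs, inhibitors, convertases and targets, 62 were tested, and 2 were called higher and 6 lower (12.9%, close to the 11.3% of all genes tested). Their median log2 fold change was -0.09. The number called ran from 4 to 15 over the alternatives, with 12 in DESeq2 and 15 without young replicate 3 and treated replicate 6. Amhr2, Smad9 and Pcsk6 kept their calls in all 28 alternatives, Furin in 23, Tgfb3 in 20, Smad3 in 14 and Chrdl1 in 11. Among 12 tested ligands of the family, Tgfb3 fell (-0.41 ± 0.12 SE, edgeR adjusted p = 0.0264), while Bmp2, Bmp4 and Bmp6 stood at -0.40 ± 0.20, 0.06 ± 0.21 and -0.19 ± 0.24. Bmp3 had the lowest log2 fold change of the 12 and just missed the threshold (-1.10 ± 0.35 SE, edgeR adjusted p = 0.0541). Of the 12, 7 had negative and 5 positive values, and 5 had an unadjusted edgeR p under 0.05. Among 8 further receptors, Amhr2, the type II receptor of anti-Müllerian hormone on granulosa cells, was 46.0 ± 8.91 CPM in young and 29.6 ± 2.30 CPM in aged mice (SD, n = 6) and fell by 0.63 ± 0.13 SE in log2 (adjusted p = 0.00221 by edgeR).

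Of the 8 SMAD genes, 1 rose and 1 fell. Smad9, a BMP-branch SMAD, went from 2.62 ± 1.01 to 5.42 ± 0.922 CPM (SD, n = 6; 1.05 ± 0.23 SE, edgeR adjusted p = 0.00349), while Smad3, which carries the TGF-beta branch signal of GDF9, fell slightly (-0.30 ± 0.10 SE, edgeR adjusted p = 0.0418). Smad1, Smad5, Smad2 and the shared partner Smad4 were not called (0.26 ± 0.10, -0.02 ± 0.06, -0.07 ± 0.10 and -0.15 ± 0.06). Of 10 secreted and membrane inhibitors, 2 were called lower, among them the BMP antagonist gene Chrdl1 (-1.13 ± 0.37 SE, edgeR adjusted p = 0.0477). Chrdl1 was scarce, at 1.71 ± 0.685 CPM in young and 0.771 ± 0.306 CPM in aged controls (SD, n = 6). Its log2 fold change ran from -1.23 to -0.32 over the alternatives. Of 4 proprotein convertases, which cleave such ligands from their precursors, Pcsk6 fell (-1.09 ± 0.15 SE, edgeR adjusted p = 3.18e-05) and Furin rose (0.34 ± 0.09 SE, edgeR adjusted p = 0.0209). Of the 6 intracellular inhibitors, edgeR and DESeq2 called 0, and 3 had an unadjusted edgeR p under 0.05.

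The target lists held no gene called by edgeR between aged and young controls. Of 8 tested BMP targets, 1 had an unadjusted edgeR p under 0.05 and DESeq2 called 0, with Id1, Id2 and Id3 at 0.06 ± 0.14, -0.20 ± 0.11 and 0.14 ± 0.07 (SE; list median -0.12). Of 10 tested GDF9 and cumulus targets, 1 had an unadjusted edgeR p under 0.05 and DESeq2 called 1 (median -0.07). The cumulus genes Ptgs2 and Ptx3 were near the detection limit at this time after hCG, at 0.645 ± 0.446 and 0.623 ± 0.288 CPM in aged controls (SD, n = 6), and Has2, at 0.109 ± 0.159 CPM, was not tested. A difference in these 3 genes was hardly detectable at this depth.

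**Figure D5:**
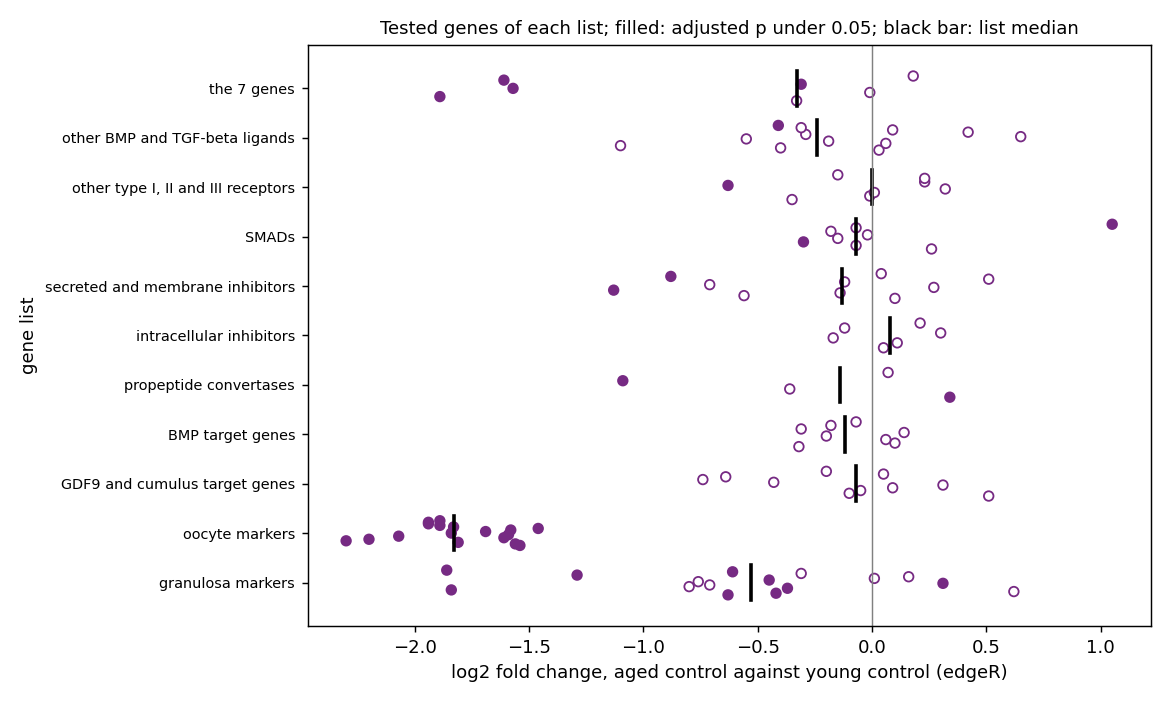
Log2 fold change in aged against young controls (horizontal axis) of every tested gene of each list (vertical axis), filled where the edgeR adjusted p was under 0.05, with a black bar at the list median. The oocyte markers lie between -2.30 and -1.46, while medians of the 8 pathway lists lie between -0.24 and 0.08.

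With Samul-tang, 1 of the 62 pathway genes was called against aged controls (1.61%, beside 1.04% of all genes tested). This was Skil, which encodes a repressor of SMAD signalling, and it fell from 62 ± 5.64 to 42.7 ± 8.87 CPM (SD, n = 6; -0.54 ± 0.12 SE, edgeR adjusted p = 0.0332). Its call held in 17 of 28 alternatives and was lost when any 1 of aged controls 1, 2, 3, 4 and 6 or treated replicates 1 and 3 was left out. It was also lost with a replicate block and with the gene length trend removed. The same held with no filter on low counts and with only the 12 libraries compared (edgeR adjusted p up to 0.1). DESeq2 called 4 of the 62. Bambi, Furin and Smad1, named after their values were seen, came close (0.33 ± 0.08, -0.37 ± 0.09 and -0.35 ± 0.09 SE, edgeR adjusted p = 0.0518, 0.0518 and 0.0608). Treated ovaries against young controls had 6 of the 62 higher and 10 lower (25.8%, beside 22.4% of all genes tested). They included the BMP pseudoreceptor gene Bambi (0.42 ± 0.08 SE, edgeR adjusted p = 0.000818), Smad9 (1.00 ± 0.23, edgeR adjusted p = 0.00286), Pcsk6 (-0.93 ± 0.15, edgeR adjusted p = 0.000106) and the BMP-family gene Bmp3 (-1.47 ± 0.35, edgeR adjusted p = 0.00663), which kept their calls in all 28 alternatives. The 8 tested BMP targets had 1 called higher (Bambi) and 1 lower (Atoh8, -0.52 ± 0.17, edgeR adjusted p = 0.0315). The 10 tested GDF9 and cumulus targets had Pkm higher (0.40 ± 0.11, edgeR adjusted p = 0.0118) and Kitl lower (-0.28 ± 0.08, edgeR adjusted p = 0.0134). Calls held in 22 of 28 alternatives for Atoh8, 28 for Pkm and 27 for Kitl.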

How the data were processed

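Ovary RNA of 18 mice was sequenced from the 3' end of polyadenylated transcripts with the QuantSeq kit, per the labels' protocols. For each library the authors deposited expected counts and TPM by gene, in RSEM format per the file headers. Tools listed in the submitters' processing notes are RSEM 1.3.3, STAR 2.7.9a and FastQC 1.9, with build GRCm39. Neither annotation nor strand setting is given in the sources used here, and overlapping and antisense genes may share reads. The deposited TPM values are divided by gene length, which does not suit 3' tags, and served for levels between genes and as an alternative. Symbols were matched by Ensembl identifier for 52083 of 55416 genes, and all 162 entries of the gene lists were found.

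Expected counts were rounded, filtered with the edgeR default (at least 10 counts at median depth in a group, at least 15 in all), which left 16959 genes, and scaled by TMM. The edgeR 4.0.16 quasi-likelihood test (R 4.3.3, robust, two-sided) used all 18 libraries with 3 group means, and a gene was called at a Benjamini-Hochberg adjusted p under 0.05 over all genes. The code was tested on simulated data. Approximate 95% intervals are the log2 fold change ± 1.96 SE. Levels relative to markers were compared by two-sided exact permutation over all regroupings of the 12 libraries, adjusted over 21 tests. The 3 comparisons share groups and are not independent. Alternatives were DESeq2 1.42.0, limma 3.58.1 on log2 TPM, other scalings, filters and samples, a replicate block, thinning to equal depth and a gene length trend.

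Named genes were the 7 members, up to 4 called genes with the smallest p of each pathway list and comparison, the 5 genes most like each member (at least 1 CPM) and marker lists as counts; others are named as values. The text names part of what the rule gives, and 1 called pathway gene is not reported here. The members and lists were chosen with earlier results of these data known.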

Additional observations from a re-analysis of the deposited data

Results flagged for a closer look

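The ratio of Gdf9 to Bmp15 CPM in aged control 4 was 6.33, while the other 5 aged controls lay between 2.63 and 3.95. The gap to the nearest library was 0.64 of the whole range, above Dixon's 95% critical value for 6 samples. Bmp15 had 18 counts in that library (1.42 CPM), the lowest of the aged controls, and Gdf9 stood at 9.01 CPM. Chance flags about 1 in 20 groups, and 24 groups were examined, with no single gene's level flagged.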

How the results depend on the processing

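Gdf9, Bmp15 and Bmpr1b stayed lower and called in both aged groups against young controls under all 28 alternatives, with log2 fold changes for aged controls from -1.73 to -1.51, from -1.97 to -1.21 and from -1.79 to -1.10. The number of the 7 genes called ran from 3 to 5 for aged against young controls and from 4 to 5 for treated against young. The number of all genes called between treated and untreated aged ovaries was 639 with DESeq2, 45 with only the 12 libraries compared, 483 without young control 3 and treated replicate 6, and 32 to 593 when 1 library was left out, against 176. The cause was not tested. On the TPM scale the ratio of Gdf9 to Bmp15 was 5.29 in young controls, 6.75 in aged controls and 7.11 in treated ovaries, since TPM divides by length.

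Signs turned only among values that were not called. For Bmpr1a the value with the gene length trend removed was 0.02, 0.03 and 0.05 in the 3 comparisons. With log2 TPM under either pseudocount it was -0.04 for Bmpr2 between the aged groups and -0.04 for Tgfbr1 in treated against young. With thinned counts Acvr2a was 0 between the aged groups. Relative to oocyte markers, Gdf9 turned with a pseudocount of 0.1 (0.17 for aged and 0.07 for treated against young) and with markers of at least 5 CPM (0.02 between the aged groups and 0.02 for treated against young), and Bmp15 on log2(TPM + 1) (0.15 and 0.04). Without young control 3 and treated replicate 6, the differences between the aged groups were 0.01 for Gdf9, -0.03 for Bmpr1a and -0.05 for Acvr2a relative to their markers. In aged against young controls, log2 fold changes ran from -0.03 to 0.01 for Bmpr1a when 1 library was left out. In treated against untreated aged ovaries, log2 fold changes ran from -0.06 to 0.26 for Bmp15, -0.07 to 0.01 for Bmpr1a and -0.02 to 0.07 for Bmpr2 when 1 library was left out. In treated against young ovaries, log2 fold changes ran from -0.08 to 0 for Bmpr1a and -0.02 to 0.05 for Tgfbr1 when 1 library was left out. In treated against untreated aged ovaries, levels relative to markers ran from -0.21 to 0.03 for Tgfbr1, -0.06 to 0.02 for Gdf9, -0.13 to 0.15 for Bmpr1a, -0.13 to 0.09 for Acvr2a and -0.18 to 0.03 for Bmp15 when 1 library was left out.

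Same-numbered libraries did not deviate together (r from -0.12 to 0.07), which gave no sign of a pairing by number. A weak pairing could not be seen this way, and the labels do not say whether the numbers pair the mice. With the replicate block Bmpr2 missed the threshold in aged and treated against young controls (-0.31 and -0.28, edgeR adjusted p = 0.0629 and 0.0579), and the number of all genes called was 1756, 139 and 3535 in the 3 comparisons. The other calls of the 7 genes were kept with the block, and the pathway genes called were 7, 0 and 14, so that the Skil call was lost. The alternatives were applied to the pathway genes after the data had been seen, and the number called of 62 ran from 0 to 4 between the aged groups and from 12 to 17 for treated against young. Depth limits Bmp15 most, with 18 counts in its lowest library.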
